A study of Saccharomyces cerevisiae with 2 samples.

Results

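The nucleosomes with the strongest occupancy signal in wild-type budding yeast were followed into cells that lack FUN30. They were the calls on chromosomes 1 to 16 whose deposited occupancy signal was at or above the 95th percentile of the wild-type list, and are called strong nucleosomes here. There were 2401 of them among 48019 wild-type calls. The fun30 deletion list held 48132 calls on the same chromosomes. Both libraries came from BY4741, a haploid laboratory strain of Saccharomyces cerevisiae, one with genotype fun30D and one labelled Wild Type, grown in YPD medium and fixed before nuclei were digested. Micrococcal nuclease cuts linker DNA, and the protected DNA of single nucleosomes was sequenced. There was 1 library per genotype, so no value below has a replicate error and no test between genotypes was possible. The depth of either library is unknown. Intervals are exact (Clopper-Pearson) 95% intervals unless another kind is named, cover counting error over calls only, and treat neighbouring calls as independent, which they are not.

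A nucleosome is DNA wrapped around an octamer of histones. Where nearly all cells of a culture hold it at the same bases, its protected fragments pile up at one place and give a strong, narrow signal. In yeast, such well-placed nucleosomes are best known beside nucleosome-free promoters, from where regularly spaced arrays run into genes. Fun30 is an ATP-dependent remodelling enzyme of the Snf2 family, related to mammalian SMARCAD1, and is known for roles in silent chromatin and in the resection of broken DNA ends. The study's title places it at nucleosomes near promoters. The sources used here do not give the build of the deposited coordinates, so calls were not assigned to genes and no sequence is shown. All positions are centres of calls in the coordinates of the deposited lists.

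The occupancy signal in the deposited lists had nearly the same distribution in the libraries, with a largest difference of 0.0146% at 1001 evenly spaced quantiles. Calls of equal rank therefore have nearly equal signals in both lists, so the signal compares ranks rather than absolute levels, and equal values or log2 ratios near 0 do not show equal occupancy. The threshold was 0.915 in both, and 2408 fun30 deletion calls lay at or above it. The members were chosen by the wild-type signal, so their levels in that library are a description. It ran up to 29.4 among strong nucleosomes, with a median of 1.25 and quartiles of 1.05 and 1.64, against a median of 0.210 over all wild-type calls. A signal of 2 or more was held by 341 strong nucleosomes, of 5 or more by 17, and of 10 or more by 3. Together the strong nucleosomes held 23.2% of the summed wild-type signal. Their partners held 22.4% of the summed fun30 deletion signal. The threshold cut through a continuous range. The calls just inside it were on chromosome 6 at 90254, on chromosome 8 at 177961 and on chromosome 15 at 831201, with wild-type signals of 0.9153, 0.9155 and 0.9156. Just outside were chromosome 9 at 425983, chromosome 9 at 84388 and chromosome 13 at 746743, with 0.9152, 0.9151 and 0.9150.

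The 10 strongest wild-type nucleosomes lay on 6 chromosomes, and the first 3 were neighbours on chromosome 12. At 459888 lay the highest call of both lists, whose signal of 29.4 is the shared maximum of the matched distributions. At 460253, rank 2 in both lists, it was 14.1. At 460074 it was 9.21 in the fun30 deletion library and 10.4 in wild type. Next came chromosome 12 at 252905, with 7.27 in the fun30 deletion library and 9.20 in wild type. Chromosome 4 at 148198 had 10.4 in the fun30 deletion library and 8.11 in wild type, and so moved to rank 3 in the mutant list. Chromosome 1 at 192941 had 8.12 and chromosome 10 at 96727 had 5.85 in the fun30 deletion library, against 7.26 and 6.64 in wild type. The other 3 were on chromosome 6 at 229415, chromosome 9 at 54129 and chromosome 1 at 113172, with 6.65, 5.99 and 5.25 in the fun30 deletion library and 6.34, 6.13 and 5.99 in wild type. All 10 had a partner within 2 bp, and 8 of the 10 were also among the 10 highest fun30 deletion calls. Of the 100 strongest wild-type nucleosomes, 81 were among the 100 strongest of the mutant, all had a partner, and the largest displacement was 11 bp.

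Strong nucleosomes were unevenly spread over chromosomes, in the same way in both libraries. On chromosome 1, 101 of 844 fun30 deletion calls were strong (11.97%, 9.85 to 14.3%), and 107 of 863 wild-type calls (12.4%, 10.3 to 14.8%). On chromosome 3 the shares were 10.1% (8.48 to 11.9%) in the fun30 deletion library and 9.94% (8.35 to 11.7%) in wild type. Chromosome 9 followed with 7.24% (6.10 to 8.53%) in the fun30 deletion library and 8.20% (6.98 to 9.55%) in wild type. The lowest shares were on chromosome 16, with 3.59% in the fun30 deletion library and 3.49% in wild type. Short chromosomes thus held more strong nucleosomes per call. Across the 16 chromosomes the share correlated with the position of the last call at r = -0.77 (rho = -0.89) in the fun30 deletion library and at r = -0.74 (rho = -0.88) in wild type. These points share one library each, and without chromosomes 1, 3 and 9 the wild-type r was -0.72 over 13 chromosomes. The remaining, weaker calls also had higher signals on short chromosomes, though not in the same order: their median wild-type signal was 0.232 on chromosome 1 and 0.190 on chromosome 16 and correlated with the last position at r = -0.81, while chromosome 9 had 0.207, below the 0.215 of chromosome 6.

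**Figure D1:**
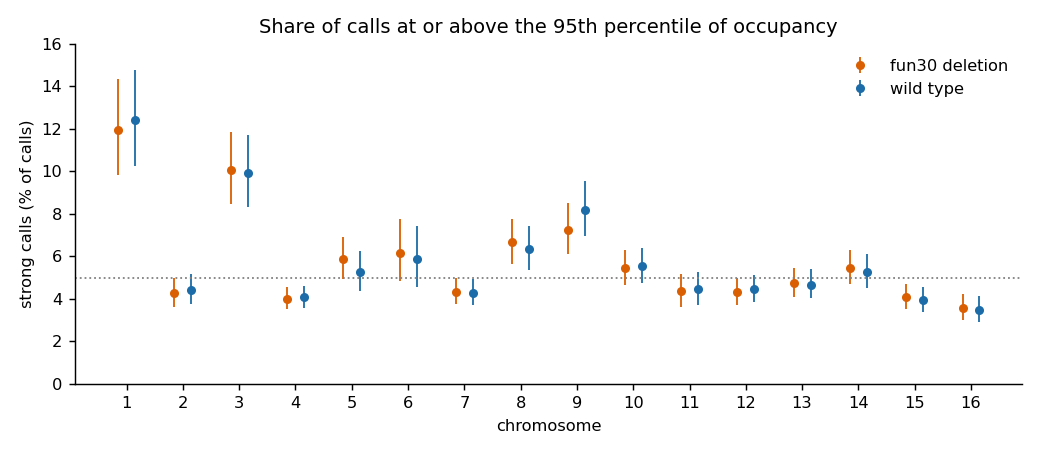
Share of calls at or above the 95th percentile of occupancy on each chromosome (x axis) in percent of its calls (y axis), with exact 95% intervals, for the fun30 deletion and the wild-type library. Both libraries show their highest shares on chromosomes 1 (11.97% and 12.4%), 3 and 9, and the dotted line marks 5%.

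Along chromosomes the share of strong nucleosomes was low from 1 to 20 kb and raised from 20 to 100 kb. Its highest value was in the outermost 1 kb, where calls are few. The distance was measured from the first or last call of a chromosome. From 5 to 20 kb, 2.70% of fun30 deletion calls (1.98 to 3.596%) and 2.61% of wild-type calls (1.88 to 3.51%) were strong. From 20 to 50 kb the shares were 6.02% (5.30 to 6.80%) in the fun30 deletion library and 6.29% (5.55 to 7.09%) in wild type. From 50 to 100 kb they were 7.78% (7.16 to 8.44%) in the fun30 deletion library and 7.29% (6.68 to 7.93%) in wild type. Beyond 100 kb they were 4.46% (4.25 to 4.68%) in the fun30 deletion library and 4.51% (4.30 to 4.74%) in wild type. The excess from 50 to 100 kb was smaller without chromosomes 1, 3 and 9, at 6.92% in the fun30 deletion library and 6.36% in wild type, against 4.32% beyond 100 kb in both. From 20 to 50 kb the shares without these chromosomes were 4.74% in the fun30 deletion library and 5.10% in wild type. Their intervals overlap those beyond 100 kb. Within 1 kb of an end 11 of 113 fun30 deletion calls (9.73%, 4.96 to 16.8%) and 15 of 112 wild-type calls (13.4%, 7.69 to 21.1%) were strong. The intervals are wide and overlap those from 50 to 100 kb in both libraries. From 1 to 5 kb the shares were 2.67% (1.16 to 5.19%) in the fun30 deletion library and 2.36% (0.953 to 4.80%) in wild type. Ends hold repeated sequence, and the sources used here do not say where reads that match several places were put, so the 64 strong wild-type nucleosomes within 20 kb of an end are uncertain.

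Strong nucleosomes lay close to one another. In wild type 63.1% of them had another within 1 kb (61.2 to 65.1%), and the median distance to the nearest was 519 bp. In the fun30 deletion library, for its own strong calls, these values were 62.3% (60.3 to 64.2%) and 579 bp. The call next to a strong call on its right was strong in 19.2% of cases (17.6 to 20.8%) in the fun30 deletion library and 19.5% (17.9 to 21.2%) in wild type, where 5% of all calls are strong by the rule. At 5 calls away the share was 13.03% in the fun30 deletion library and 12.9% in wild type, at 10 calls 9.83% and 10.4%, and at 50 calls 5.77% and 4.99%, in the same order of libraries. The clustering therefore faded with distance, to near the overall share at 50 calls. Distances between strong calls peaked near multiples of a nucleosome repeat. Distances within other classes of calls were not set beside them, so this is not shown to be particular to strong calls. Peaks in the distance between strong calls lay at 160, 325, 481 and 656 bp in the fun30 deletion library and at 159, 322, 492 and 650 bp in wild type. At the first peak there were 93.8 pairs of strong calls per 10 bp in the fun30 deletion library and 92.4 in wild type, and at the first trough 3.33 and 2.86.

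**Figure D2:**
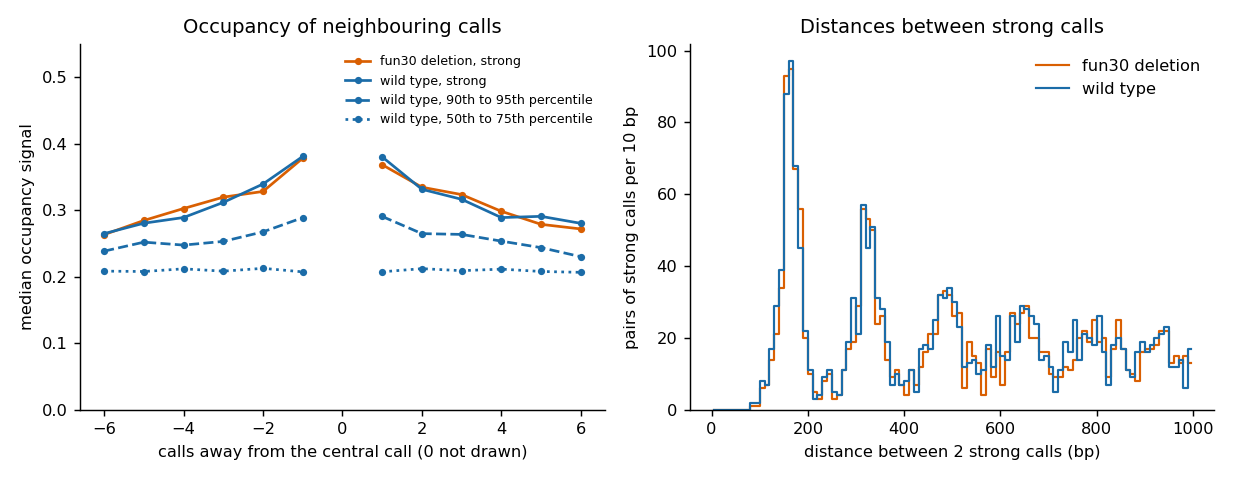
Left, median occupancy signal (y axis) of calls 1 to 6 places away from a central call (x axis) for strong calls of both libraries and for weaker classes of wild type. Right, number of pairs of strong calls per 10 bp (y axis) by distance in bp (x axis). The signal beside strong calls falls away on both sides, and the distances peak near 160, 325 and 481 bp in the fun30 deletion library and 159, 322 and 492 bp in wild type.

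The neighbours of strong nucleosomes had raised signals too, but far lower than the strong nucleosome itself. The median signal of the call on the left was 0.378 in the fun30 deletion library and 0.381 in wild type, and 6 calls away it was 0.263 and 0.265, against 0.206 beside all other calls of either library. The weaker of the neighbours in wild type held a median of 0.175 times the signal of the strong nucleosome, and the stronger one 0.460 times. A strong nucleosome stood above both neighbours in 82.3% of cases. The members were chosen by this same signal, so this share and the ratios to the neighbours are a description only. At least 1 neighbour was itself strong in 784 of 2391 cases (32.8%), against 9.14% over all wild-type calls. At the other extreme, both neighbours lay below the median signal in 235 cases (9.83%), against 27.4% over all wild-type calls.

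The intervals beside strong nucleosomes were more often regular. The distance between centres was from 140 to below 190 bp in 51.7% of 4807 intervals beside strong fun30 deletion calls (50.2 to 53.1%) and in 48.8% of 4792 intervals beside strong wild-type calls (47.4 to 50.3%). An interval between 2 strong calls counts once for each. The background was 29.3% of wild-type intervals, and the share beside wild-type calls from the 90th to the 95th percentile was 41.3%. The difference between strong and all other wild-type calls was 20.6 percentage points (95% Newcombe interval 19.2 to 22.1). Regular spacing on both sides was seen at 28.4% of strong fun30 deletion calls and 25.8% of strong wild-type calls, against a wild-type background of 10.9%. Close neighbours under 120 bp made up 13.2% of the intervals beside strong calls in the fun30 deletion library and 15.4% in wild type, where the background was 19.6%. The median interval beside strong calls was 164 bp in the fun30 deletion library and 163 bp in wild type. The higher regular share of the mutant library was not particular to strong nucleosomes: around the same nucleosomes in both libraries it was 50.7% in the fun30 deletion and 48.8% in wild type, and around all other paired nucleosomes 32.5% in the fun30 deletion and 30.4% in wild type.

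Strong nucleosomes flanked wide gaps less often than calls as a whole. A wide gap was a distance of 220 to 450 bp between neighbouring centres, whether or not a nucleosome too weak to be called lay inside. Such a gap lay on at least 1 side of 24.8% of strong fun30 deletion calls (23.1 to 26.6%) and 23.5% of strong wild-type calls (21.9 to 25.3%), against 37.1% of all wild-type calls. It was not particular to strong calls, since wild-type calls from the 90th to the 95th percentile had 25.4%, and the difference of the strong ones from them was -1.89 points with a Newcombe interval that includes 0 (-4.32 to 0.545). A gap on both sides was seen at 1.96% of strong calls in the fun30 deletion library and 1.59% in wild type. Counting calls outward from the nearest wide gap, the share of strong calls was lowest at the flank itself, with 3.48% (3.21 to 3.76%) in the fun30 deletion library and 3.16% (2.91 to 3.43%) in wild type. At place 2 it was 6.01% (5.54 to 6.51%) in the fun30 deletion library and 5.91% (5.44 to 6.40%) in wild type. At place 4 it was 7.08% (6.24 to 7.99%) and 7.29% (6.43 to 8.22%), in the same order of libraries. Places 2 to 5 lay between 6.01% and 7.08% in the fun30 deletion library and between 5.91% and 7.68% in wild type. Neighbouring places among these had overlapping intervals. Calls with no wide gap in reach were strong in 4.005% of cases (3.52 to 4.53%) in the fun30 deletion library. In wild type their share was 3.79% (3.31 to 4.33%). These intervals overlap those of the flank in both libraries, so a low share was not particular to the flank. Of 2382 strong nucleosomes whose intervals were known in both libraries, 433 had a wide gap on a side in both, 161 in the fun30 deletion library alone and 130 in wild type alone.

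Strong calls had uniform widths. The median was 116 bp in the fun30 deletion library, with quartiles of 112 and 120 bp, and 117 bp in wild type, with quartiles of 113 and 120 bp. All other calls had quartiles of 100 and 123 bp in the fun30 deletion library and 98 and 126 bp in wild type. A width of 110 to 120 bp was found in 64.0% of strong calls in the fun30 deletion library (62.0 to 65.9%) and 61.2% in wild type (59.2 to 63.2%). Among all other calls it was 29.6% in the fun30 deletion library and 25.4% in wild type. The class just below the strong calls, from the 90th to the 95th percentile, had 54.6% in the fun30 deletion library and 48.6% in wild type. Uniform widths were thus not particular to strong calls. Widths of the same nucleosome differed between libraries by a median of 3 bp for strong pairs and 15 bp for all other pairs. For pairs from the 90th to the 95th percentile of wild type, widths differed by a median of 5 bp. They correlated across the 2394 strong pairs at r = 0.34 (rho = 0.41), and across the 38400 other pairs at r = 0.12 (rho = 0.12). These points share the libraries and are not replicates.

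Nearly every strong nucleosome was also called without Fun30. A partner was the mutually nearest fun30 deletion call with its centre at most 73 bp away. It was found for 2394 of the 2401 strong nucleosomes (99.7%, 99.4 to 99.9%), against 85% of all wild-type calls. Other well-occupied calls were paired nearly as often, with 99.1% from the 90th to the 95th percentile and 97.9% from the 75th to the 90th, and 73.2% below the median. Of the 7 without one, 3 lay on chromosome 1 at 115011, 115334 and 115662, with wild-type signals of 2.40, 1.10 and 2.60. They belong to a run of 18 wild-type calls without a partner that ends at 117922, inside which the fun30 deletion library had 0 calls. The run is on the chromosome of FUN30 (YAL019W, chromosome I), whose length in the gene table is 3396 bp, and it served as the check of the genotype labels. It was placed by its chromosome and extent, not by gene coordinates. Without these 3 the paired share was 99.8%.

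The other 4 strong nucleosomes without a partner had mutant calls nearby. Chromosome 13 at 924229, with 1.75 in wild type, was the last wild-type call of its chromosome and is uncertain. The last mutant call there was at 924104, with a signal of 1.17 in the fun30 deletion library, and lay beside a wild-type call at 924108 with 1.10. Chromosome 8 at 49419 had 1.03 in wild type and lay between calls 116 and 77 bp away, and the fun30 deletion library held 1 call of 154 bp width at 49480, with 0.785, near the wild-type calls at 49419 and 49496. Chromosome 11 at 519375 had 0.987 in wild type and a close neighbour at 519274. The mutant call at 519274 was 173 bp wide, and the wild-type call there was 118 bp wide. The nearest mutant call to 519375 was at 519450, 75 bp away, with 0.168 and a width of 146 bp. Chromosome 5 at 463515 had 0.968 in wild type, and the mutant call at 463454, 61 bp away, had 0.909 and lay nearer to another wild-type call. At chromosomes 8 and 11 a wide mutant call thus stood near 2 closely spaced wild-type calls.

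Paired strong nucleosomes kept their places within a few base pairs. The median displacement was 2 bp, the upper quartile 4 bp and the 90th percentile 12 bp, and 449 of 2394 pairs (18.8%) had the same centre in both libraries. For all other pairs the median was 10 bp and the upper quartile 22 bp. Centres lay 20 bp or more apart in 75 strong pairs (3.13%, 2.47 to 3.91%), against 26.6% of all pairs. The difference from all other pairs was -24.9 percentage points (95% Newcombe interval -25.7 to -24.0). The class just below, from the 90th to the 95th percentile, had 7.56% (6.53 to 8.70%), a difference of -4.43 points for the strong pairs (-5.72 to -3.17). Within the strong nucleosomes the share was 3.603% (2.81 to 4.54%) from the 95th to the 99th percentile and 1.25% (0.461 to 2.71%) above it. Displacement thus fell along the whole range of wild-type signal, and the part of the precision with which a stronger signal sets a centre was not tested. The direction was balanced, with 42 pairs whose mutant call had the higher coordinate and 33 whose mutant call had the lower.

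**Figure D3:**
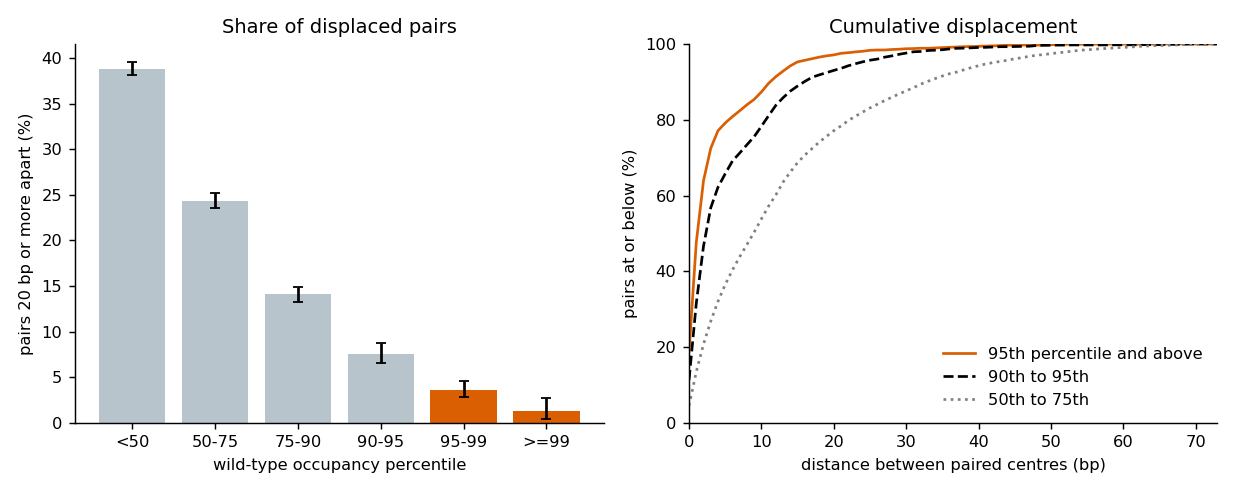
Left, share of pairs with centres 20 bp or more apart (y axis, percent, exact 95% intervals) by class of wild-type occupancy (x axis, percentile), with the strong classes in orange. Right, percent of pairs (y axis) at or below a given distance between centres in bp (x axis). The strong classes have 3.603% and 1.25% displaced pairs, against 7.56% in the class below them.

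The 75 displaced strong nucleosomes had less typical calls than the rest. A wild-type width of 140 bp or more was found in 17 of them (22.7%, 13.8 to 33.8%), against 3.10% (2.44 to 3.89%) of the 2319 strong pairs that were not displaced. Among all other pairs it was found in 26.9% of displaced ones and 9.86% of those not displaced. Wide calls were thus not particular to displaced strong nucleosomes. Seen by width, 19.1% of strong calls of 140 bp or more (11.5 to 28.8%), 9.49% of those under 100 bp (5.41 to 15.2%) and 2.003% of those from 100 to below 140 bp (1.45 to 2.69%) were displaced. Those with a neighbour closer than 120 bp were displaced in 4.50% of cases (3.04 to 6.40%), and those without one in 2.63% (1.93 to 3.49%), with intervals that overlap. A regular interval on both sides went with 1.79% (0.896 to 3.18%) and a wide gap on a side with 1.95% (0.978 to 3.46%), which do not differ beyond their intervals. Of the displaced ones, 43 (57.3%) were still strong in the mutant, against 82.1% of those not displaced.

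The largest displacement among strong nucleosomes was 65 bp. It was on chromosome 4, where the fun30 deletion call lay at 894216 with a signal of 1.08 and a width of 86 bp, and the wild-type call at 894281 with 1.53 and 168 bp. On chromosome 3 the fun30 deletion call at 60497, with 0.449, lay 55 bp below the wild-type call at 60552, with 1.198. The left neighbour of the mutant call was 181 bp from it, with 1.10, and that of the wild-type call was 150 bp from it, with 0.197. These neighbours were measured from different centres and lay at different positions, so no change is read from them. On chromosome 2 the fun30 deletion call at 73888 had 0.872 and the wild-type call at 73836 had 0.979. On chromosome 5 they lay at 118963 with 1.02 and at 119014 with 0.978, and on chromosome 10 at 290529 with 0.734 and at 290580 with 1.10, the mutant call each time first. All 5 displacements were 51 bp or more. The mutant call had the lower coordinate in 4 of them, and the higher one on chromosome 2. The strongest displaced nucleosomes, chosen after their values were seen, were on chromosome 12 at 460368, with 1.81 in the fun30 deletion library and 2.30 in wild type, and on chromosome 1 at 190995, with 2.27 and 2.22 in the same order. Their displacements were 24 and -23 bp, just past the threshold.

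The spacing between strong neighbours was held closely. Where 2 neighbouring calls were paired and still neighbours in the mutant, their distance differed by 20 bp or more in 30 of 439 intervals with a strong nucleosome at both ends (6.83%, 4.66 to 9.61%). With a strong nucleosome at one end it was 24.1% of 3087 intervals (22.6 to 25.7%), and with none 41.2% of 26495 (40.7 to 41.8%). Of the 30 changed intervals between strong nucleosomes, 15 were longer and 15 shorter in the mutant. Their median length over all 439 was 163 bp in both libraries. Regular spacing was found at 73.3% of them in the fun30 deletion library and 72.9% in wild type.

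Most strong nucleosomes remained strong without Fun30. The partner was at or above the mutant's own 95th percentile for 1946 of 2401 (81.0%, 79.4 to 82.6%), against 5.01% of all wild-type calls. The same 1946 pairs made up 80.8% of the 2408 strong fun30 deletion calls. For 97.3% of the strong nucleosomes the partner was at or above the 90th percentile of the mutant. The 448 partners that lay below the mutant threshold had a median signal of 0.810 in the fun30 deletion library and 1.01 in wild type, where the threshold was 0.915. A single partner lay below the 75th percentile, on chromosome 13 at 91746.

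The median change in the deposited signal of strong pairs was near 0 and took its sign from the library that chose them. Since the signal has nearly the same distribution in both lists, this does not show that occupancy was unchanged. The partners had quartiles of 0.983 and 1.64 and a median of 1.24 in the fun30 deletion library, and the strong calls had quartiles of 1.05 and 1.63 and a median of 1.25 in wild type. The log2 ratio of fun30 deletion to wild type was -0.06 at the median, with an SD of 0.31 over pairs, and 59.4% of the pairs were lower in the mutant. When the strong calls of the fun30 deletion library were followed to wild type, the median of the same ratio was 0.07, and 40.4% were lower in the mutant. Among the 2394 pairs with the highest mean log2 signal of both libraries it was -0.003. No loss or gain at strong nucleosomes as a group is read from these values. Log2 signals correlated across strong pairs at r = 0.86 (rho = 0.79), over a range cut by the threshold. Weaker calls next to strong nucleosomes had a median log2 ratio of -0.01 with an SD of 0.49 over 3364 paired neighbours.

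**Figure D4:**
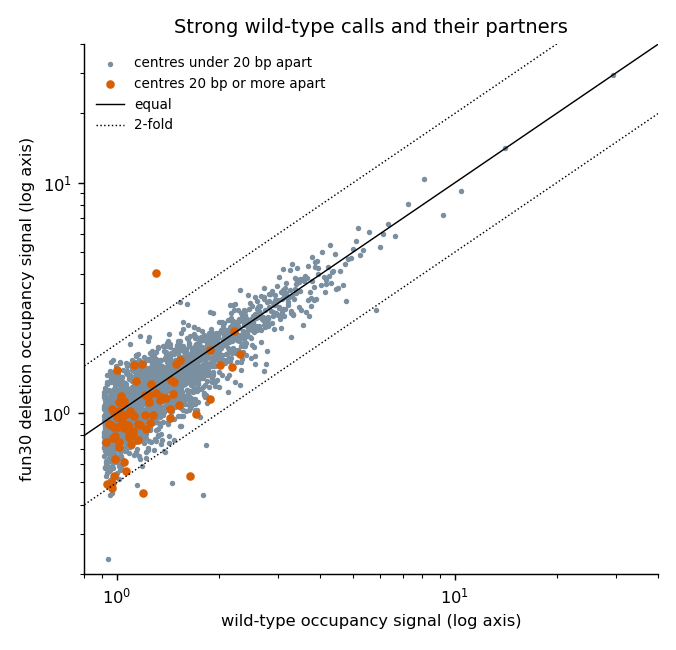
Occupancy signal of each strong wild-type nucleosome (x axis, log scale) and of its fun30 deletion partner (y axis, log scale), 1 point per pair, with pairs 20 bp or more apart in orange. The points follow the line of equality, with 14 pairs on or below the lower 2-fold line and 1 above the upper one.

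Few strong nucleosomes differed 2-fold. The signal was at least 2-fold lower in the mutant at 14 strong pairs (0.585%, 0.320 to 0.979%), against 2.29% of all pairs, and at least 2-fold higher at 1 (0.042%), against 2.59% of all pairs. Among wild-type calls from the 90th to the 95th percentile the signal was at least 2-fold lower at 1.39% of pairs and at least 2-fold higher at 0.042%. Since the wild-type signal chose the members, nothing is read from the surplus of lower ones or the scarcity of higher ones. The 14 lay on 10 chromosomes, and 3 of them were displaced by 20 bp or more. On chromosome 9 at 241098 the signal was 0.440 in the fun30 deletion library and 1.79 in wild type at the same centre, a log2 ratio of -2.03. On chromosome 13 at 91746 it was 0.233 in the fun30 deletion library and 0.939 in wild type, a ratio of -2.01, with a displacement of 2 bp. Chromosome 13 at 482647 had 0.534 in the fun30 deletion library and 1.64 in wild type, with the mutant call 30 bp lower and 178 bp wide. Chromosome 9 at 178358 had 0.495 in the fun30 deletion library and 1.46 in wild type, and the displaced call of chromosome 3 at 60552 completes the 5 largest decreases. The strongest of the 14 was the first wild-type call of chromosome 6, at 4739, with 2.80 in the fun30 deletion library and 5.84 in wild type. It was named after its values were seen, is the only one of the 14 that was still strong in the mutant, and is uncertain because it lies at an end.

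Of the 5 largest increases, 1 was more than 2-fold. Chromosome 12 at 460474 had 4.06 in the fun30 deletion library and 1.30 in wild type, a log2 ratio of 1.64, with the mutant call 43 bp higher. Chromosome 8 at 190234 had 3.05 in the fun30 deletion library and 1.53 in wild type. Its right neighbour in wild type was 283 bp away with 3.52. That neighbour kept a strong partner at nearly the same centre in the mutant. Between them the mutant list held a further weak call, 93 bp away with 0.0918, so the strong neighbour was not replaced. Chromosome 14 at 186314 had 2.15 in the fun30 deletion library and 1.17 in wild type. Chromosome 1 at 35399 had 2.97 in the fun30 deletion library and 1.61 in wild type. Chromosome 16 at 724430 had 1.99 in the fun30 deletion library and 1.10 in wild type. The last 4 had centres within 1 bp of each other in both libraries.

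Strong nucleosomes also occurred in unbroken runs. Of those in wild type 1616 (67.3%) had no strong neighbour, and 28 runs held 4 or more. In the fun30 deletion library 1634 of its own strong calls (67.9%) stood alone, and 28 runs held 4 or more. The longest wild-type run was on chromosome 9, with 11 strong nucleosomes in 1731 bp, centred from 54129 to 55860. Its median interval was 168.5 bp. It opened with signals of 5.99, 3.503 and 3.02 in the fun30 deletion library and 6.13, 3.14 and 2.95 in wild type, and all 11 nucleosomes had partners within 12 bp. In the mutant 10 of them were strong, and the last had 0.841 in the fun30 deletion library and 1.07 in wild type. The signal was highest at the first nucleosome, before which the call had 0.387 in wild type.

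The second longest run was on chromosome 1, with 9 strong nucleosomes from 113172 to 114573, beside the run of calls missing in the mutant. All 9 had partners, 6 of which were strong. Their signals ran from 0.761 to 5.25 with a median of 1.58 in the fun30 deletion library, and from 1.18 to 5.99 with a median of 2.19 in wild type. The median log2 ratio was -0.44, and 7 of the 9 were lower in the mutant. The lowest ratio was -0.83 at 114079, where the signal was 0.761 in the fun30 deletion library and 1.36 in wild type. At 114228 the mutant call lay 20 bp higher and was 157 bp wide, against 119 bp in wild type. The run ends next to the missing segment. Within 5 kb on either side of that segment, 13 of 48 wild-type calls were strong, all with partners, at a median log2 ratio of -0.08. All 13 lay at lower coordinates than the segment, and they include the 9 of this run. The third run, on chromosome 13 from 818069 to 819141, held 7 strong nucleosomes with signals from 0.874 to 3.73 in the fun30 deletion library and from 0.927 to 3.77 in wild type, and the largest displacement was 10 bp.

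The run with the highest signals was the one on chromosome 12, and it stood apart from other calls. Its 5 calls lay 8952 bp beyond the previous and 29.1 kb before the next wild-type call. The first 3 had centres within 1 bp in both libraries, and signals of 29.4, 9.21 and 14.1 in the fun30 deletion library and 29.4, 10.4 and 14.1 in wild type. The last 2 differed, with mutant centres 24 and 43 bp higher and signals of 1.81 and 4.06 in the fun30 deletion library, against 2.30 and 1.30 in wild type. Chromosome 12 carries the ribosomal RNA gene repeats of yeast. Whether this run lies in repeated DNA was not tested. Without chromosome 12 the displaced share of strong pairs was 3.03%, and the paired share was 99.7%.

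**Figure D5:**
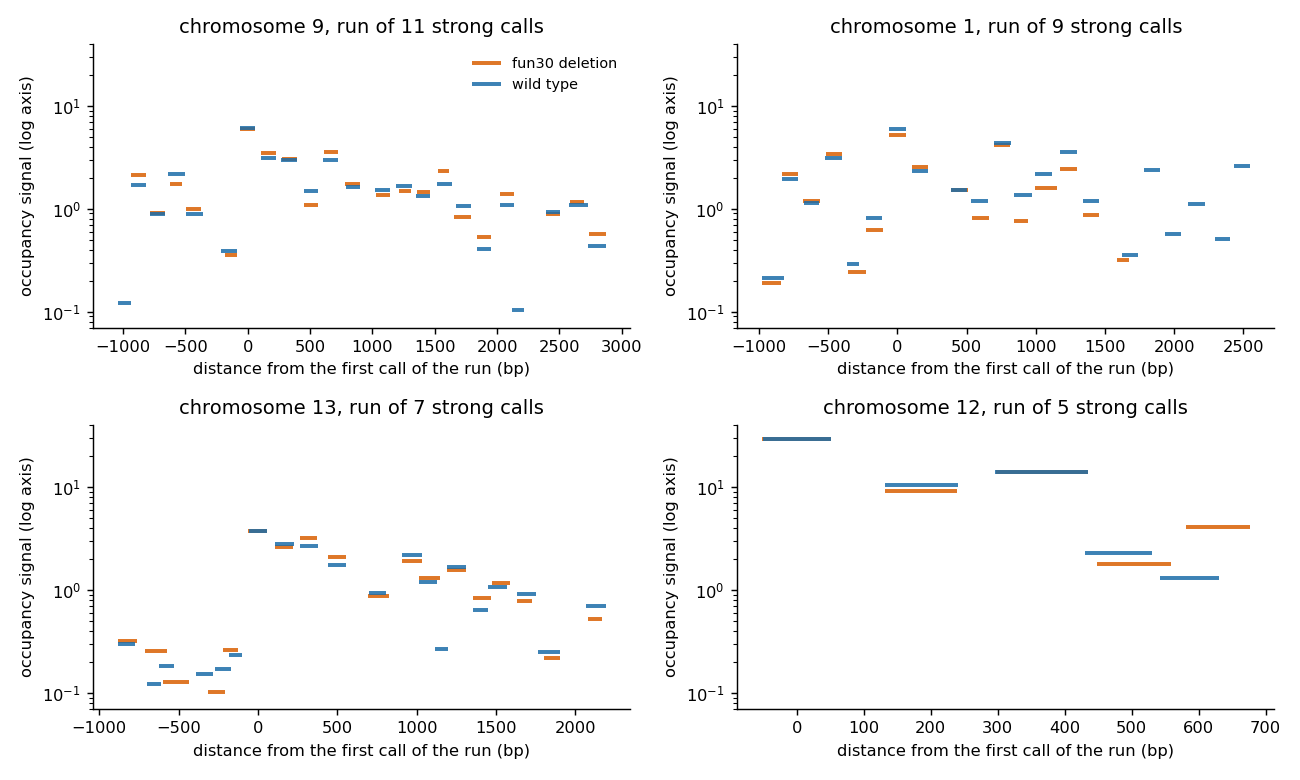
Calls of the fun30 deletion and the wild-type library around the 3 longest runs of strong nucleosomes and the run on chromosome 12, drawn as bars of the call's width at its distance in bp from the first call of the run (x axis) and its occupancy signal (y axis, log scale). On chromosome 9 the bars of the libraries coincide along the run, on chromosome 1 the mutant bars stop where the missing segment begins, and on chromosome 12 the last 2 calls are displaced by 24 and 43 bp.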

How the data were processed

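Each deposited list is of 1 library and gives, per the file headers, the chromosome, centre and width (bp) of its nucleosome calls and their occupancy signal. Nothing in them was pooled. The submitters' processing notes name Bowtie 0.12.7, a read aligner. The sources used here do not name the caller, its settings, the genome build or the scaling of the deposited occupancy signal. The signal is not a read count, its distribution over calls was nearly identical in the libraries, and depth is unknown, so precision per call is unknown too. Calls were filtered on chromosomes 1 to 16, which left out 3 fun30 deletion calls. Strong calls, pairs (mutually nearest, at most 73 bp), displacement (20 bp), wide gaps and regular spacing were computed with Python 3.11.15, numpy 2.4.6, pandas 2.3.3 and scipy 1.17.1. The pairing was tested on simulated data with planted displacements and losses, from which closely spaced calls had been removed. That test therefore does not cover pairing among close neighbours. Intervals are Clopper-Pearson for shares, Newcombe for differences of shares. Named calls were the 10 highest, the 5 largest displacements, decreases and increases, the unpaired ones, the 3 longest runs and 3 calls on either side of the threshold; others named are said to be so. Calls were marked uncertain within 20 kb of an end. The members, classes and named kinds were chosen with earlier results of these data known. Alternatives covered the percentile, pairing distance, displacement, chromosomes, ends, choosing library, gap and spacing limits.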

Additional observations from a re-analysis of the deposited data

Results flagged for a closer look

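Outside the 16 chromosomes compared, 3 calls of the fun30 deletion library carry the chromosome number 17, which 0 wild-type calls carry. Their signals were 0.153, 0.118 and 0.0878, and 0 of them reached the threshold of a strong call. With 1 library per genotype, groups were not searched for outlying samples.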

How the results depend on the processing

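Of 72 comparisons with an alternative setting, 56 stayed within the 95% interval of the reported value, including all 8 for the median width. The paired share, 99.7%, became 99.9% for strong calls chosen in the fun30 deletion library. The displaced share, 3.13%, became 1.25% above the 99th and 5.34% above the 90th percentile, 14.6% for 10 bp or more and 0.668% for 40 bp or more. The median log2 ratio, -0.064, changed sign to 0.071 for strong calls chosen in the fun30 deletion library, and was -0.047 above the 99th percentile and -0.0026 for pairs chosen by the mean of both libraries. The share still strong, 81.0%, became 90.02% with that last choice. The share with a wide gap, 23.5%, became 25.8% above the 99th percentile, 32.7% with no upper limit and 19.6% for gaps of 250 to 450 bp. The share of regular intervals, 48.8%, became 54.9% above the 99th and 45.0% above the 90th percentile, 51.7% for strong fun30 deletion calls and 35.5% for 150 to below 180 bp. Moves with the displacement, gap and spacing limits follow from their construction. The reason for the moves with the percentile was not tested, and the sign of the ratio followed the choosing library. The choice by the mean of both libraries and the omission of the run at FUN30 were added after seeing the data. No paired analysis was possible because there is 1 library per genotype. The unknown depth and the lack of replicates limit every comparison.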

Other observations

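Of the 2408 strong calls of the fun30 deletion library, 2 had no wild-type partner. They lay on chromosome 1 at 191419, with a signal of 0.944, and on chromosome 12 at 1060333, with 1.01 and a width of 173 bp. The nearest wild-type calls were 71 and 100 bp away, with signals of 0.780 and 0.318. The second one lies 4.75 kb from the last call of its chromosome and is uncertain. Of 594 windows of 20 kb with at least 20 wild-type calls, 67 held no strong nucleosome, and in the median window 3.73% of the calls were strong. In 8 windows the share was 20% or more. The highest was on chromosome 9 between 40 and 60 kb, with 26 of 97 calls, followed by chromosome 3 between 100 and 120 kb, with 19 of 79, and chromosome 3 between 200 and 220 kb, with 20 of 92. The log2 occupancy ratios of strong nucleosomes next to each other correlated at r = 0.07 (rho = 0.08) over 439 neighbouring pairs, which share the libraries.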
